A study of Mus musculus with 8 samples.

Results

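Open chromatin was examined at 10 genes of the type 1 helper (Th1) and cytotoxic programme: Tbx21, Eomes, Ifng, Hopx, Il12rb1, Il12rb2, Runx3, Gzmb, Prf1 and Nkg7. Every region that the deposited count table assigns to one of these symbols was taken once, which gave 49 of the table's 46624 distinct regions. ATAC-seq, which reads out open chromatin through the sites where the Tn5 transposase inserts adapters, was run on cells sorted by flow cytometry from untreated C57BL/6 mice that carry a red fluorescent reporter of Foxp3 (Foxp3RFP). There were 4 groups of 2 libraries each: regulatory T cells (Tregs, RFP+) of male visceral adipose tissue (VAT), Tregs (RFP+) of female VAT, CD4+ T cells negative for the reporter (RFP-) of male VAT, and Tregs (RFP+) of male spleen. Each library pools cells of 3 mice, and the labels used here give no age. Apart from the pooling, nothing states how the replicates were separated, so p-values measure the spread between these libraries. The study asks how Treg chromatin differs between the sexes and between tissues.

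T-bet (encoded by Tbx21) and its relative Eomes are T-box factors that turn on interferon gamma (Ifng) in Th1, CD8 and natural killer (NK) cells. Interleukin 12, sensed by a receptor built from Il12rb1 and Il12rb2, acts through STAT4 to strengthen that programme, and Runx3 binds with T-bet at its targets. Hopx is a homeodomain protein without DNA binding of its own that is kept on in effector and memory T cells, while granzyme B (Gzmb) and perforin (Prf1) are the granule proteins that kill target cells and Nkg7 is a granule membrane protein needed for their release. Tregs of adipose tissue are an effector type of Treg that is known to depend on PPARG and interleukin 33 and to be more frequent in male than in female fat.

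At 4 of these genes a narrow open region covered part of the promoter, and their start windows are printed because these regions are described below. The windows run from 250 bases before the start site to the 49th base after it, are taken from RefSeq (build GRCm38.p6) and are written 5′ to 3′ on the strand of the gene. Capitals mark matches to a T-box motif (GGTGTGA), a Runx motif (TGTGGTT), an AP-1 motif (TGANTCA) or a STAT motif (TTCNNNGAA), searched on both strands. The windows lie at chr10:118440796-118441095 (Ifng, plus strand), chr14:56262285-56262584 (Gzmb, minus strand), chr10:61297586-61297885 (Prf1, plus strand) and chr7:43436888-43437187 (Nkg7, plus strand).
Ifng: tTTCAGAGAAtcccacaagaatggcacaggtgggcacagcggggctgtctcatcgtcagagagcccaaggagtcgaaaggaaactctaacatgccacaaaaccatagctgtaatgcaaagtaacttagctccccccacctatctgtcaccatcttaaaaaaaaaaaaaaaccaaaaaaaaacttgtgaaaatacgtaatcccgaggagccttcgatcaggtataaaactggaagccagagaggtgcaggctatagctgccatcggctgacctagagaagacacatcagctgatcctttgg
Gzmb: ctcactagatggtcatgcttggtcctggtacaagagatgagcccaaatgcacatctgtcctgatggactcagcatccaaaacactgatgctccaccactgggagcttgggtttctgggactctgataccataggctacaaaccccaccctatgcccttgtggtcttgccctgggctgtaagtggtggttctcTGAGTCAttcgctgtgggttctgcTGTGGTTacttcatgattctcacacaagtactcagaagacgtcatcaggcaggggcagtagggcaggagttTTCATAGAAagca
Prf1: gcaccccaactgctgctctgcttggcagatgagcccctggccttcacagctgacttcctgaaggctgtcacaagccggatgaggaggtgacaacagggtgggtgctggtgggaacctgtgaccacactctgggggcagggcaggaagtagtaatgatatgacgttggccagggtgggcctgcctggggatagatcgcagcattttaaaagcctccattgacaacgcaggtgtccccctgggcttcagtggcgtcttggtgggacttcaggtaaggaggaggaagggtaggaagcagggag
Nkg7: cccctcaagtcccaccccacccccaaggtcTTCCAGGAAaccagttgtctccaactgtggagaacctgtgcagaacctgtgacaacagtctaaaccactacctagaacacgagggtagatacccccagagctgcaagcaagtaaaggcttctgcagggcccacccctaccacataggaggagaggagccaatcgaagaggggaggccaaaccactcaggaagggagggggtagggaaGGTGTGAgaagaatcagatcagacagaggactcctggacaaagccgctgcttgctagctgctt

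Of 32817 start windows in the RefSeq table, 3.98% held the T-box motif, 5.27% the Runx motif, 7.81% the AP-1 motif and 8.29% the STAT motif. Each motif thus occurs at many other genes, and a match only describes the letters. The table has 11 windows for 9 of the genes, and Il12rb1 is named without one. With the start site counted as base 0, the Gzmb window holds an AP-1 match from -58 to -52 and a Runx match from -34 to -28, both inside its open region, which spans -149 to 38. Its STAT match from 37 to 45 runs over the end of that region. The Ifng window has a STAT match from -249 to -241, upstream of its open region (-215 to -90). In the Nkg7 window the T-box match from -13 to -7 falls between the open region (-103 to -24) and the start site, and a STAT match lies from -220 to -212. Neither the Prf1 window, open from -250 to -84 within the window, nor the windows of Tbx21, Eomes, Hopx and the downstream Runx3 start hold a match. The upstream Runx3 window has a pair of Runx matches from -135 to -129 and from -127 to -121, and the Il12rb2 window has a STAT match from -123 to -115. Motif matches did not overlap one another, and spans may be off by 1 base because the count table does not say whether starts count from 0 or 1.

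Counts used for the tests were 5724685 to 15805270 per library, so that 1 CPM, the depth-scaled unit used below, stood for 5.19 to 16.7 counts. Across all regions Pearson's r of log2 CPM between the replicates of a group was 0.950 to 0.969. Male VAT Treg replicate 1 stands apart: narrow regions (under 1000 bp) held 5.63% of its counts. In replicate 2 their share was 4.27%, and in the remaining libraries 3.64 to 4.42%. The sort was checked at Foxp3, the defining Treg gene, where 4 of 6 regions were higher in male VAT Tregs than in male VAT CD4 cells. The one on chromosome X from 7582208 to 7585993 had 18.8 and 14.0 CPM in male VAT Tregs, 27.1 and 32.9 CPM in female VAT Tregs, 1.54 and 2.16 CPM in male VAT CD4 cells, and 13.6 CPM in each library of male spleen Tregs. The Foxp3 region with the highest values (7572009 to 7576644) did not set these groups apart, at 42.7 and 24.6 CPM in male VAT Tregs and 32.4 and 36.2 CPM in male VAT CD4 cells. CD8 and NK cell markers give the other cells in which these genes are active. Of 8 such markers, Cd8a, Ncr1 and Xcl1 have no region in the table, and the 11 regions of the other 5 summed to 178 and 141 CPM in male VAT Tregs, 166 and 173 CPM in female VAT Tregs, 176 and 172 CPM in male VAT CD4 cells, and 166 and 159 CPM in male spleen Tregs. Most of each sum came from Klrb1c (107 and 94.8 CPM in male VAT Tregs) and Tyrobp (60.8 and 37.3 CPM there). The sums therefore say little about the remaining markers. The CD8 chain gene Cd8b1 alone had 0.824 and 1.07 CPM in male VAT Tregs, 0.997 and 1.29 CPM in female VAT Tregs, 1.35 and 1.44 CPM in male VAT CD4 cells, and 2.91 and 1.43 CPM in male spleen Tregs. Marker regions of B cells summed to 74.7 to 110.3 CPM per library, of myeloid cells to 155 to 218 CPM, of adipocytes to 61.3 to 95.9 CPM and of stromal and endothelial cells to 139 to 159 CPM. Male VAT Treg replicate 2 was the lowest library for the first 3 of these lists, and Ms4a1, Lyz2, Csf1r, Adgre1 and Lep have no region. Most of the B cell sum came from Cd79a (85.0 and 55.2 CPM in male VAT Tregs). In male VAT against spleen Tregs, 2 of 14 myeloid, 2 of 11 adipocyte and 2 of 29 T cell marker regions were called lower. Against CD4 cells, 21 of 58 Treg marker regions were higher and 1 lower, and 6 of 29 T cell, 1 of 9 B cell and 1 of 14 myeloid marker regions were lower. In male against female VAT Tregs 1 Treg marker region was higher, and 3 Treg and 1 myeloid marker regions were lower. Those 3 Treg marker regions were all at Foxp3, on chromosome X, with log2 fold changes of -0.69, -0.86 and -0.77. The part of the sex chromosomes in this difference was not tested. Of the Treg marker regions, 7 were higher and 1 lower in male VAT than in spleen Tregs. In female VAT against male spleen Tregs 5 were higher, most of them at Foxp3. Over all regions tested, 2.04% were higher and 1.21% lower in male against female VAT Tregs. The shares were 4.64% and 2.09% for male VAT against spleen Tregs, and 5.18% and 2.51% for male VAT Tregs against CD4 cells. For female VAT against male spleen Tregs they were 1.18% and 0.197%. No region of the CD8 and NK list or of the stromal list was called in these edgeR tests. The part of other cells in the results below was not tested.

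Of the 49 regions, 48 passed the low-count filter and were tested. All adjusted p-values below come from edgeR's quasi-likelihood test with Benjamini-Hochberg adjustment over 45709 regions, with calls made under 0.05. In a test across all 4 groups 16 of the 48 regions were called (33.3%), against 12.4% of all regions. Regions under 1000 bp, which make up 34 of the 48, are called more often in general, so shares are also given within that width: 13 of the 34 (38.2%), against 20.5% of all such regions. The 16 were 5 of 8 regions of Hopx, 3 of 11 of Ifng, 3 of 3 of Il12rb2, 2 of 2 of Prf1, and 1 each of Runx3, Gzmb and Nkg7. Regions of Tbx21, Eomes and Il12rb1 were not among them. Without male VAT Treg replicate 1 the count was 15. ATAC-seq of sorted pools gives 1 signal per pool, so fewer cells with an open region and less opening in each cell cannot be told apart.

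**Figure D1:**
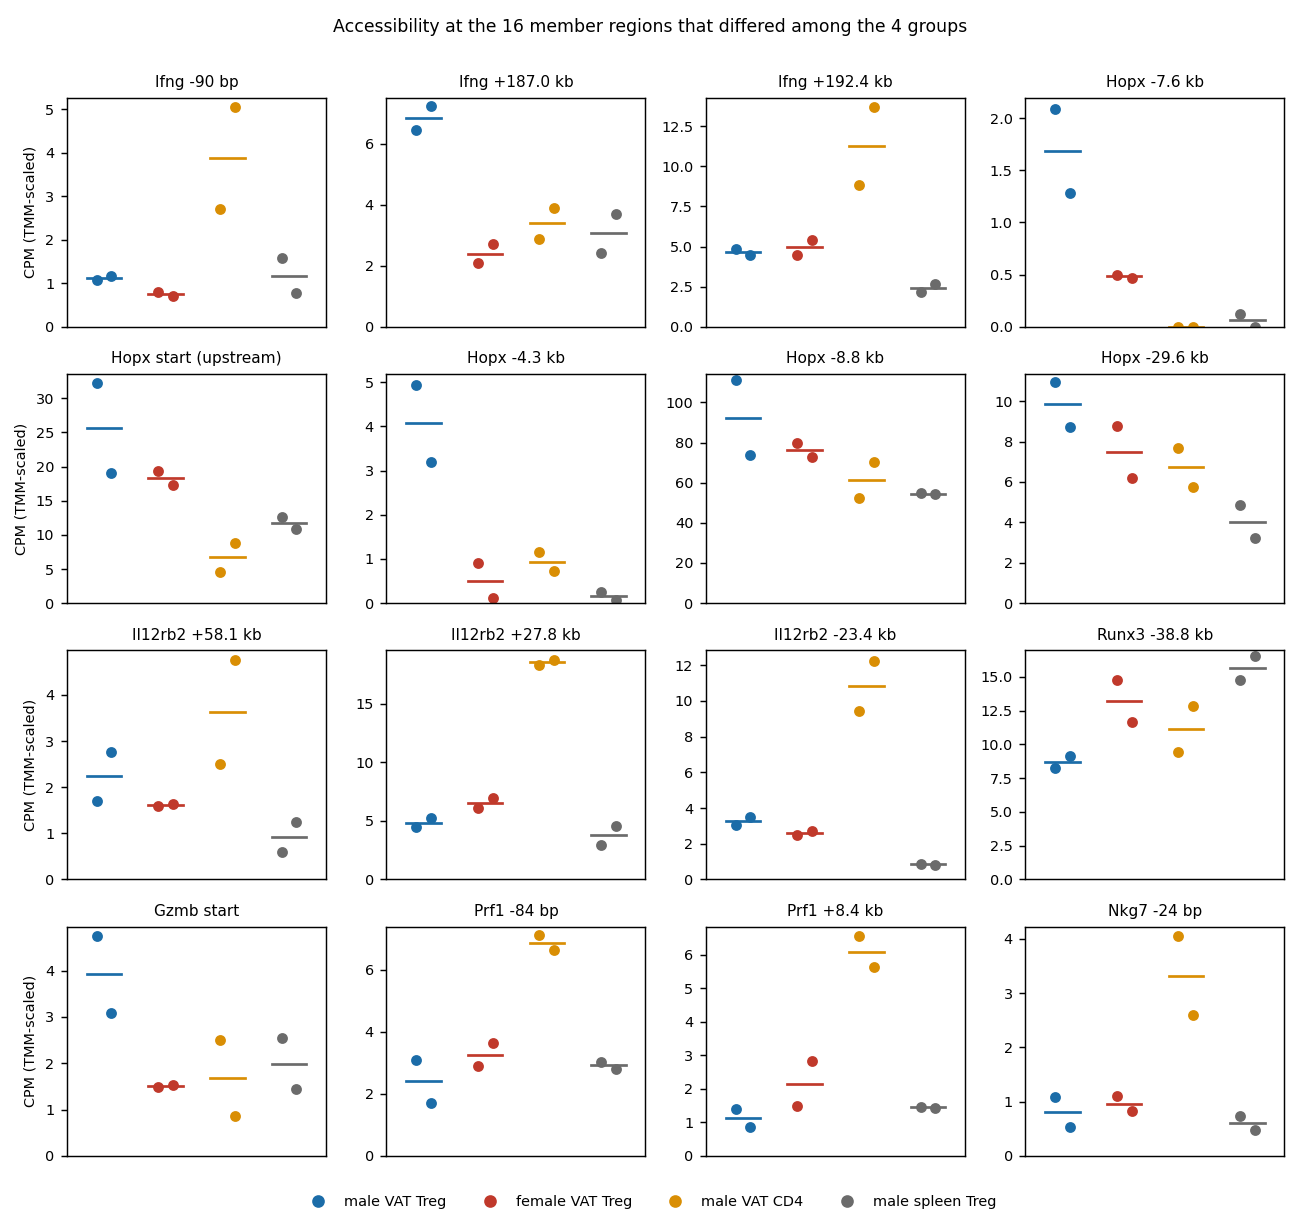
TMM-scaled CPM (vertical axis, starting at 0) at the 16 regions called in the test across the 4 groups, with 1 point per library and a line at the mean of 2 libraries; groups run from male VAT Treg on the left to male spleen Treg on the right, and panel titles give the distance from the nearest annotated start. Male VAT Tregs have the highest mean at the Hopx panels, and male VAT CD4 cells at the Prf1, Il12rb2 and Nkg7 panels.

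Male VAT Tregs against female VAT Tregs gave 2 regions higher in males (4.17%), 1 far downstream of Ifng and 1 upstream of Hopx, against 2.04% of all regions. Both are under 1000 bp, where the share was 5.88% of 34 members, against 4.68% of all regions of that width, close to the background. All member regions are autosomal, while the shares over all regions and all gene sums include chromosomes X and Y. This matters where the sexes are compared, here and for female VAT against male spleen Tregs, and autosomal shares were not computed. No region was called lower in males by edgeR, DESeq2 or limma-voom, against 1.21% of all regions, with 2 of 48 at an unadjusted edgeR p under 0.05. The median log2 fold change over the 48 regions was 0.19, against 0.01 over all regions tested. Without female VAT Treg replicate 2 the count of higher regions was 0, without female replicate 1 or male VAT Treg replicate 1 it was 1, and without male VAT Treg replicate 2 it was 5.

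Male VAT Tregs against male spleen Tregs gave 7 regions higher in VAT (14.6%) and 1 lower (2.08%), against 4.64% higher and 2.09% lower over all regions. Within regions under 1000 bp the higher share was 14.7% (5 of 34), against 10.2% of all such regions, and among wider regions it was 14.3% (2 of 14), against 1.54%. The higher ones were 5 regions of Hopx, 1 of Ifng and 1 of Il12rb2, and the lower one belongs to Runx3. The median log2 fold change was 0.00 over the members and -0.01 over all regions. With scaling factors taken from regions under 1000 bp alone there were 5 higher and 3 lower. Without male VAT Treg replicate 1 the count of higher regions was 3, and without male spleen Treg replicate 2 it was 4. The count of lower regions was 2 without male spleen Treg replicate 1 and 0 without replicate 2.

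Male VAT Tregs against the reporter-negative male VAT CD4 cells gave 12 calls among the members, the highest number of the 4 comparisons. They were 5 regions higher in Tregs (10.4%), all at Hopx, and 7 lower (14.6%), at Ifng, Il12rb2, Prf1 and Nkg7, against 5.18% higher and 2.51% lower over all regions. All 7 lower regions are under 1000 bp, where they make up 20.6% of the 34 tested, against 3.73% of all regions of that width. In the higher direction the narrow members were below the background, at 5.88% (2 of 34), against 10.3%, and the wider ones above it, at 21.4% (3 of 14), against 2.35%. The median log2 fold change was 0.05 over the members and -0.02 over all regions. With scaling factors from regions under 1000 bp alone there were 2 higher and 8 lower, and with library size alone 6 higher and 5 lower. The count of higher regions was 1 without male VAT Treg replicate 1 and 2 without either male VAT CD4 replicate. The count of lower regions was 4 without male VAT Treg replicate 2 or without male VAT CD4 replicate 2, and 5 without male VAT Treg replicate 1 or male VAT CD4 replicate 1.

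Female VAT Tregs against male spleen Tregs, which differ in sex as well as in tissue, gave 1 region higher, at Il12rb2 (2.08%), against 1.18% of all regions, or 2.94% of the 34 narrow members, against 2.07% of all narrow regions. No region was called lower by edgeR, DESeq2 or limma-voom, against 0.197% of all regions, with 2 at an unadjusted edgeR p under 0.05. The median log2 fold change was -0.05 over the members and -0.003 over all regions. The count of higher regions was 2 without either male VAT Treg replicate and 0 without either female VAT Treg replicate, male VAT CD4 replicate 2 or either spleen replicate. Sex and tissue cannot be told apart in this pair. The 3 comparisons that involve male VAT Tregs share those 2 libraries, and the spleen libraries enter in 2 comparisons, so their values are set side by side and not counted as separate support.

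**Figure D2:**
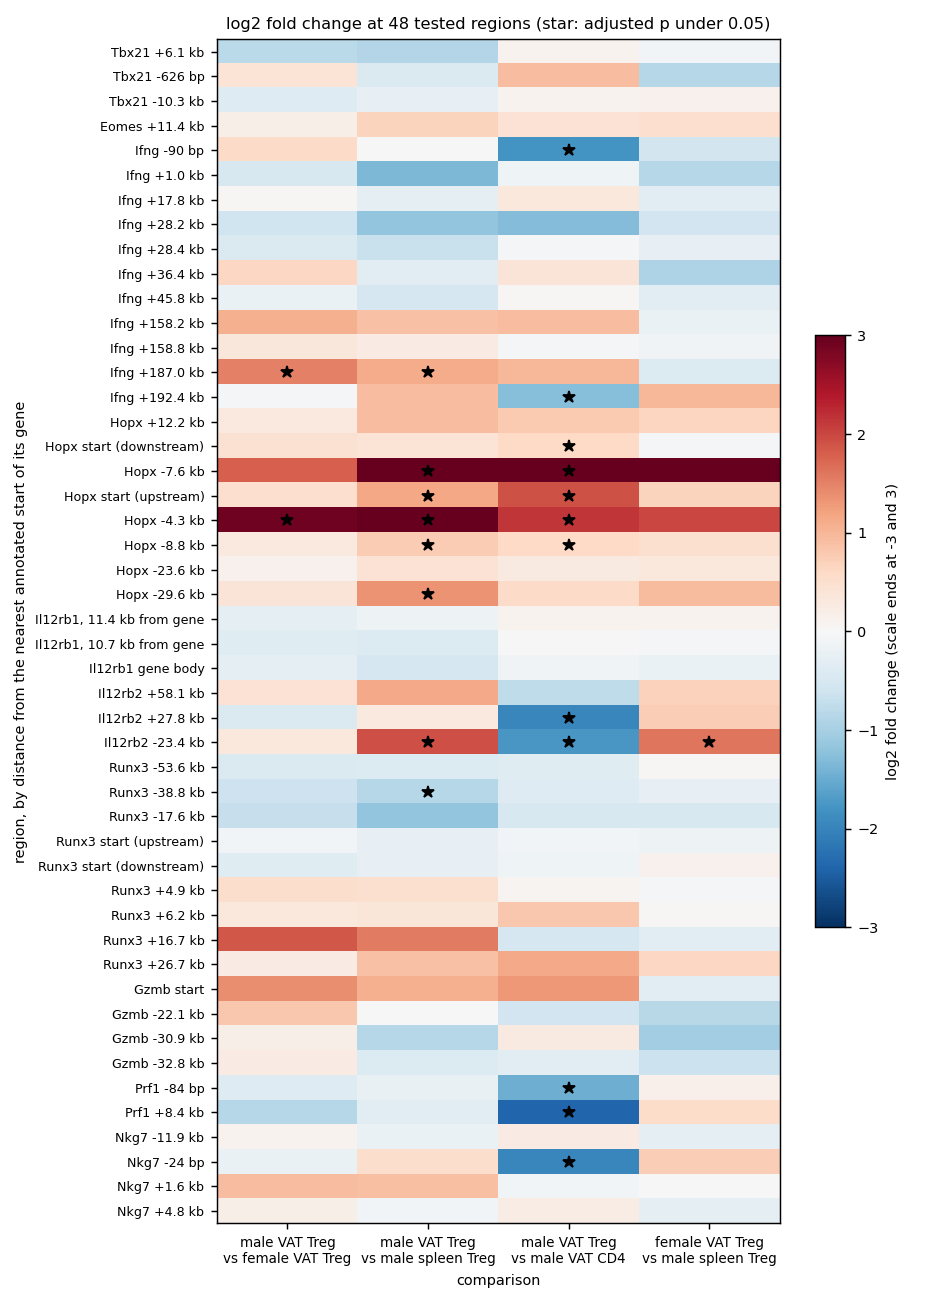
The log2 fold change at the 48 tested regions (rows, by gene and distance from the nearest annotated start) in 4 comparisons (columns), with red for higher and blue for lower in the group named first and a star for an edgeR adjusted p under 0.05; the colour scale ends at -3 and 3. Stars at Hopx are all red, and those at Ifng, Il12rb2, Prf1 and Nkg7 in the comparison of male VAT Tregs with male VAT CD4 cells are all blue.

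**Figure D3:**
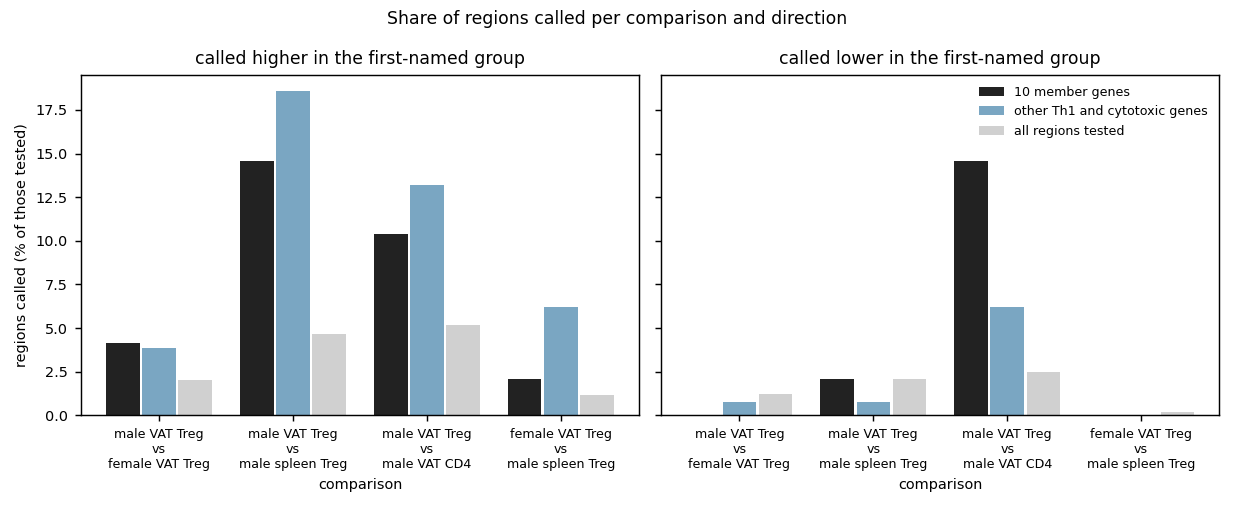
Share of tested regions called (vertical axis, percent) higher (left panel) or lower (right panel) in the group named first, for the 10 member genes, for 129 regions of other Th1 and cytotoxic genes and for all 45709 regions. The member genes reach 14.6% in the lower direction for male VAT Tregs against male VAT CD4 cells, where all regions have 2.51%.

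Among the receptors, Il12rb2, the signalling chain of the interleukin 12 receptor, had its lowest mean in spleen Tregs and its highest in VAT CD4 cells at all 3 of its regions. Its region inside the gene on chromosome 6 from 67348089 to 67348422, 27.8 kb from the start site, had 4.43 and 5.22 CPM in male VAT Tregs, 6.08 and 6.92 CPM in female VAT Tregs, 18.3 and 18.8 CPM in male VAT CD4 cells, and 2.91 and 4.60 CPM in male spleen Tregs. Both CD4 libraries lie above all 6 Treg libraries. Male VAT Tregs were lower than male VAT CD4 cells, with a log2 fold change of -1.95 ± 0.27 (SE, n = 2 each, edgeR adjusted p = 6.01e-10), and the call held in all 18 alternative analyses. The 2 VAT Treg groups differed by -0.44 ± 0.28 in males against females (edgeR adjusted p = 0.538), and male VAT Tregs overlapped spleen Tregs.

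A region 23.4 kb upstream of Il12rb2, from 67399589 to 67399874 and 23.1 kb from the interleukin 23 receptor gene Il23r, differed between the tissues. It held 3.04 and 3.52 CPM in male VAT Tregs, 2.49 and 2.70 CPM in female VAT Tregs, 9.44 and 12.3 CPM in male VAT CD4 cells, and 0.849 and 0.836 CPM in male spleen Tregs. No group overlaps another, and the order runs from CD4 cells through male and female VAT Tregs to spleen Tregs. Male VAT Tregs were above spleen Tregs (log2 fold change 1.94 ± 0.44, edgeR adjusted p = 0.000803) and below CD4 cells (-1.74 ± 0.36, edgeR adjusted p = 8.84e-05), both in every alternative run. The neighbours in that order, male and female VAT Tregs, differed by 0.33 ± 0.39 (edgeR adjusted p = 0.819). Female VAT Tregs against spleen Tregs gave 1.61 ± 0.47 (edgeR adjusted p = 0.0457), a call kept in 6 of 17 alternatives. It was lost without either female VAT Treg replicate (edgeR adjusted p = 0.267 without replicate 1 and 0.312 without replicate 2), without either spleen replicate (0.190 and 0.299), and without male VAT CD4 replicate 2 (0.0624).

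The third Il12rb2 region, 58.1 kb from the start and inside the gene (67317931 to 67318054), had 1.71 and 2.77 CPM in male VAT Tregs, 1.6 and 1.64 CPM in female VAT Tregs, 2.50 and 4.76 CPM in male VAT CD4 cells, and 0.606 and 1.25 CPM in male spleen Tregs. It passed across the 4 groups (edgeR adjusted p = 0.0403) and in none of the 4 pairs tested. Il12rb1, the chain shared with the interleukin 23 receptor, had no region called in any comparison. Its region at the gene, on chromosome 8 from 70804177 to 70809260, had 18.6 and 11.4 CPM in male VAT Tregs, 17.4 and 20.1 CPM in female VAT Tregs, 15.2 and 17.3 CPM in male VAT CD4 cells, and 22.7 and 20.5 CPM in male spleen Tregs. The widest of its 3 regions, from 70788313 to 70796944, had 51.6 and 40.7 CPM in male VAT Tregs, 54.5 and 56.6 CPM in female VAT Tregs, 35.6 and 49.5 CPM in male VAT CD4 cells, and 51.9 and 51.1 CPM in male spleen Tregs. Spleen Tregs are highest at the first and female VAT Tregs at the second, and male VAT Tregs overlap CD4 cells at both. The edgeR adjusted p closest to the threshold was 0.134, for male VAT against spleen Tregs at the first region. All 3 Il12rb1 regions are also assigned to the neighbouring kinase gene Mast3, which they overlap.

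Among the transcription regulators, Hopx had the most called regions. Of its 8 regions, 5 were higher in male VAT Tregs than in spleen Tregs and 5 higher than in VAT CD4 cells. Male VAT Tregs had the highest mean at all 8, but not through both libraries everywhere. At the regions from 77138728, 77123937 and 77082902, male VAT Treg replicate 2 had 14.1, 73.6 and 2.24 CPM. Female VAT Tregs averaged 16.1, 76.2 and 2.25 CPM at these regions. The region around the upstream Hopx start, on chromosome 5 from 77113500 to 77116441, had 32.2 and 19.1 CPM in male VAT Tregs, 19.4 and 17.4 CPM in female VAT Tregs, 4.62 and 8.80 CPM in male VAT CD4 cells, and 12.6 and 10.8 CPM in male spleen Tregs. Both VAT Treg groups lie above spleen Tregs and CD4 cells, and overlap each other. Male VAT Tregs against CD4 cells gave 1.91 ± 0.24 (edgeR adjusted p = 1.51e-11, kept in all 18 alternatives). Against spleen Tregs the log2 fold change was 1.16 ± 0.21 (edgeR adjusted p = 7.11e-06), and 0.72 without male VAT Treg replicate 1 (edgeR adjusted p = 0.0717), the single alternative of 17 that ended the call. Male against female VAT Tregs gave 0.50 ± 0.21 (edgeR adjusted p = 0.203), and female VAT Tregs against spleen Tregs gave 0.66 ± 0.22 (edgeR adjusted p = 0.115).

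The Hopx region 4337 bp upstream of that start (77119460 to 77119703), within the long noncoding RNA gene Gm15831, was most open in male VAT Tregs. It had 4.94 and 3.20 CPM in male VAT Tregs, 0.898 and 0.117 CPM in female VAT Tregs, 1.16 and 0.721 CPM in male VAT CD4 cells, and 0.242 and 0.0597 CPM in male spleen Tregs. Both male VAT Treg libraries lie above the other 6. Male against female VAT Tregs gave 2.93 ± 0.63 (edgeR adjusted p = 0.000627), which was 2.58 without male VAT Treg replicate 1 (edgeR adjusted p = 0.124) and 2.18 without female VAT Treg replicate 2 (edgeR adjusted p = 0.176). Spleen Tregs had 3 counts there, against 108 counts in male VAT Tregs, a depth-scaled ratio of 35.8 (exact 95% interval 11.9 to 176, counting error only), with an edgeR adjusted p of 5.61e-08 that stayed under the threshold in every alternative. Against CD4 cells the log2 fold change was 2.15 ± 0.63 (edgeR adjusted p = 0.0132, kept in 12 of 18 alternatives), and leaving out male VAT Treg replicate 1 ended it (edgeR adjusted p = 0.359), as did leaving out either CD4 replicate (0.0711 without replicate 1 and 0.212 without replicate 2).

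Another narrow Hopx region inside the gene (77102841 to 77102922), 7.57 kb upstream of the downstream start, had 2.09 and 1.28 CPM in male VAT Tregs, 0.499 and 0.469 CPM in female VAT Tregs, no reads in male VAT CD4 cells, and 0.121 and 0 CPM in male spleen Tregs. The groups are ordered without overlap, except that CD4 and spleen libraries share the value 0. Male VAT Tregs were at least 7.23-fold higher than CD4 cells, taking a floor of 3 counts over that group (edgeR adjusted p = 0.00235). Against spleen Tregs the counts were 45 in male VAT Tregs and 1 in spleen, a depth-scaled ratio of 44.7 (exact 95% interval 7.63 to 1804, edgeR adjusted p = 0.000732). Male against female VAT Tregs gave 1.80 ± 0.81 (edgeR adjusted p = 0.269). Without male VAT Treg replicate 1 the adjusted p in edgeR was 0.0697 against spleen and 0.0881 against CD4 cells. With limma on the deposited log2 values it was 0.133 and 0.131. In edgeR it was 0.0884 without spleen replicate 2, and 0.0935 and 0.127 without CD4 replicates 1 and 2, each in the comparison with that group.

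Further from the gene, a 13181 bp region 8.81 kb upstream (77123937 to 77137118), over the long noncoding RNA gene Chaer1, had 111 and 73.6 CPM in male VAT Tregs, 79.7 and 72.8 CPM in female VAT Tregs, 52.4 and 70.4 CPM in male VAT CD4 cells, and 54.8 and 54.3 CPM in male spleen Tregs. Male VAT Tregs lie above spleen Tregs and CD4 cells but overlap female VAT Tregs. The log2 fold change was 0.76 ± 0.17 against spleen Tregs (edgeR adjusted p = 0.000613) and 0.59 ± 0.17 against CD4 cells (edgeR adjusted p = 0.0156). Without male VAT Treg replicate 1 these were 0.43 (edgeR adjusted p = 0.146) and 0.25 (edgeR adjusted p = 0.563), and without CD4 replicate 1 the second was 0.40 (edgeR adjusted p = 0.420). Scaling on regions under 1000 bp ended both calls (edgeR adjusted p = 0.0523 and 0.243), and the second also ended with DESeq2 (adjusted p = 0.0643) and with only these 2 groups in the edgeR fit (0.0803).

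The Hopx region 29.6 kb upstream (77144709 to 77145060) had 11.0 and 8.74 CPM in male VAT Tregs, 8.78 and 6.22 CPM in female VAT Tregs, 7.70 and 5.77 CPM in male VAT CD4 cells, and 4.85 and 3.22 CPM in male spleen Tregs. Only spleen Tregs lie apart from the rest there. Male VAT Tregs exceeded them by 1.35 ± 0.28 (edgeR adjusted p = 0.00014, and 0.0868 without spleen replicate 2), and female VAT Tregs by 0.95 ± 0.29 (edgeR adjusted p = 0.0736).

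The region over the downstream Hopx start (77091579 to 77096236) had 37.4 and 29.8 CPM in male VAT Tregs, 23.6 and 25.7 CPM in female VAT Tregs, 22.0 and 22.8 CPM in male VAT CD4 cells, and 28.6 and 22.7 CPM in male spleen Tregs. Male VAT Tregs lie above all other libraries. The log2 fold change was 0.59 ± 0.20 against CD4 cells (edgeR adjusted p = 0.0427), kept in 4 of 18 alternatives and lost without any single library other than male VAT Treg replicate 2, with edgeR adjusted p of 0.0641 to 0.356. The log2 fold change against CD4 cells was thus 1.91 at the upstream start and 0.59 at the downstream start, a contrast that was not itself tested.

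**Figure D4:**
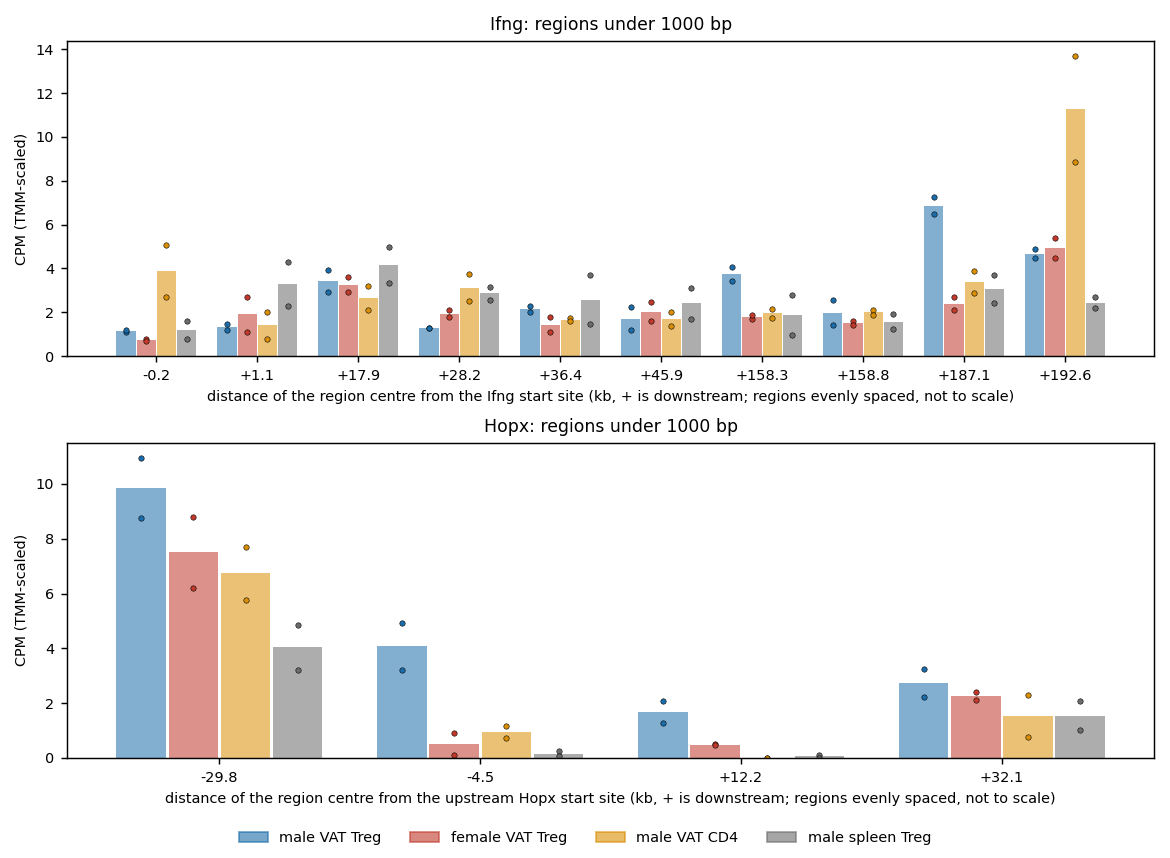
TMM-scaled CPM (vertical axes) at the regions under 1000 bp of Ifng (top) and Hopx (bottom), in order along the gene but not to scale, with bars at the mean of 2 libraries and points for the libraries. At Ifng the region 187 kb from the start is highest in male VAT Tregs and the next one, 192 kb from the start, in male VAT CD4 cells. At Hopx male VAT Tregs have the highest bar at each region, but overlap female VAT Tregs at the one furthest downstream.

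Tbx21, which encodes the Th1 master regulator T-bet, had 3 regions, and none passed in a comparison. Nearest to its start, 626 bp upstream on chromosome 11 (97115957 to 97116038), it had 1.90 and 0.853 CPM in male VAT Tregs, 1.30 and 0.821 CPM in female VAT Tregs, 0.770 and 0.721 CPM in male VAT CD4 cells, and 2.06 and 1.85 CPM in male spleen Tregs. The widest region, 10.3 kb upstream (97125583 to 97129036), had 13.1 and 8.74 CPM in male VAT Tregs, 15.3 and 13.5 CPM in female VAT Tregs, 7.51 and 12.5 CPM in male VAT CD4 cells, and 14.7 and 11.8 CPM in male spleen Tregs. At the first, both CD4 libraries are the lowest of the 8. At the second, male VAT Tregs overlap CD4 cells and spleen Tregs and lie just below female VAT Tregs. The third, inside the gene (97109057 to 97109264), averaged 2.54 ± 0.268 CPM in male VAT Tregs, 4.51 ± 0.594 CPM in female VAT Tregs, 2.38 ± 0.0997 CPM in CD4 cells and 4.72 ± 0.162 CPM in spleen Tregs (SD, n = 2 each), with edgeR adjusted p of 0.306 for male against female VAT Tregs and 0.150 for male VAT against spleen Tregs. Eomes had 1 region, 11.4 kb from its start on chromosome 9 (118489626 to 118489951), which is also assigned to Golga4 and lies in the noncoding gene Gm33460. It had 5.70 and 4.91 CPM in male VAT Tregs, 5.59 and 3.87 CPM in female VAT Tregs, 2.70 and 5.05 CPM in male VAT CD4 cells, and 2.67 and 3.82 CPM in male spleen Tregs, and its smallest adjusted p in edgeR was 0.252, for male VAT against spleen Tregs.

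Runx3, a factor that silences Cd4 in CD8 T cells and works with T-bet in Th1 cells, had 9 regions. That 38.8 kb upstream on chromosome 4 (135078210 to 135081817) had 8.24 and 9.17 CPM in male VAT Tregs, 14.8 and 11.6 CPM in female VAT Tregs, 9.44 and 12.8 CPM in male VAT CD4 cells, and 14.8 and 16.5 CPM in male spleen Tregs. Both male VAT Treg libraries are the lowest of the 8. Male VAT Tregs fell against spleen Tregs, with a log2 fold change of -0.86 ± 0.22 (edgeR adjusted p = 0.00486), and the p became 0.0774 without male VAT Treg replicate 1 and 0.125 without spleen replicate 2. The regions over its starts passed in no comparison. The upstream one (135118643 to 135122272) had 20.9 and 13.3 CPM in male VAT Tregs, 17.4 and 19.4 CPM in female VAT Tregs, 14.8 and 21.8 CPM in male VAT CD4 cells, and 19.8 and 21.1 CPM in male spleen Tregs. The downstream one (135150927 to 135153728) had 9.69 and 10.3 CPM in male VAT Tregs, 11.4 and 14.6 CPM in female VAT Tregs, 7.51 and 13.8 CPM in male VAT CD4 cells, and 12.1 and 11.5 CPM in male spleen Tregs. At the downstream start both male VAT Treg libraries lie below those of female VAT Tregs and of spleen Tregs, and within the range of CD4 cells.

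Ifng, which encodes the Th1 cytokine interferon gamma, had 11 regions, reaching from the gene to 192 kb downstream of its start, and the called ones moved in different directions. At its promoter, whose window is printed above, the region on chromosome 10 from 118440831 to 118440956 had 1.08 and 1.17 CPM in male VAT Tregs, 0.798 and 0.704 CPM in female VAT Tregs, 2.70 and 5.05 CPM in male VAT CD4 cells, and 1.58 and 0.776 CPM in male spleen Tregs. Both CD4 libraries exceed all 6 Treg libraries, and the Treg groups are close to each other. Male VAT Tregs against CD4 cells gave -1.80 ± 0.58 (edgeR adjusted p = 0.0304). The call was kept in 11 of 18 alternatives. It ended with library size alone (edgeR adjusted p = 0.0585), with DESeq2 (0.0907) and with limma on the deposited log2 values (0.0743). It also ended without either male VAT Treg replicate (edgeR adjusted p = 0.213 without replicate 1 and 0.103 without replicate 2) and without either CD4 replicate (0.0576 and 0.523).

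The 2 regions furthest downstream, 187 kb and 192 kb from the Ifng start, differ in pattern although they lie within 6 kb of each other. They are beyond the long noncoding RNA gene Ifngas1, at 71.5 and 76.9 kb from it, and the nearest other protein-coding gene is Dyrk2, at 227 and 222 kb. The first (118628043 to 118628334) had 6.46 and 7.25 CPM in male VAT Tregs, 2.09 and 2.70 CPM in female VAT Tregs, 2.89 and 3.89 CPM in male VAT CD4 cells, and 2.42 and 3.70 CPM in male spleen Tregs. Both male VAT Treg libraries lie well above the other 6, which overlap. Male against female VAT Tregs gave 1.51 ± 0.37 (edgeR adjusted p = 0.00369), with edgeR adjusted p of 0.209 without female VAT Treg replicate 1 and 0.0581 without replicate 2. Male VAT against spleen Tregs gave 1.11 ± 0.34 (edgeR adjusted p = 0.0255). In edgeR its adjusted p was 0.0610 and 0.0834 without male VAT Treg replicates 1 and 2, 0.291 and 0.0523 without spleen replicates 1 and 2, and 0.0830 with scaling on regions under 1000 bp; in DESeq2 it was 0.118. Against CD4 cells the value was 0.99 ± 0.37 (edgeR adjusted p = 0.0837).

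The second (118633473 to 118633791) had 4.88 and 4.48 CPM in male VAT Tregs, 4.49 and 5.40 CPM in female VAT Tregs, 8.86 and 13.7 CPM in male VAT CD4 cells, and 2.18 and 2.69 CPM in male spleen Tregs. CD4 cells are highest, the VAT Treg groups overlap each other, and spleen Tregs are lowest. Male VAT Tregs fell against CD4 cells, at -1.28 ± 0.30 (edgeR adjusted p = 0.000994, and 0.201 without CD4 replicate 2). Both VAT Treg groups lie above spleen Tregs without passing the threshold, males by 0.92 ± 0.33 (edgeR adjusted p = 0.0701) and females by 0.98 ± 0.34 (edgeR adjusted p = 0.151). The widest Ifng region (118469399 to 118472290), 28.4 kb from the start, had 4.88 and 6.50 CPM in male VAT Tregs, 7.28 and 7.86 CPM in female VAT Tregs, 3.66 and 7.5 CPM in male VAT CD4 cells, and 8.12 and 9.67 CPM in male spleen Tregs, and passed in no comparison.

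Among the cytotoxic effectors, Prf1 had lower values in male VAT Tregs than in VAT CD4 cells at both of its regions. Its promoter region on chromosome 10 (61297584 to 61297752), within the window printed above, had 3.10 and 1.71 CPM in male VAT Tregs, 2.89 and 3.64 CPM in female VAT Tregs, 7.13 and 6.63 CPM in male VAT CD4 cells, and 3.03 and 2.81 CPM in male spleen Tregs. A region 1.6 kb past the gene (61306284 to 61306480) had 1.39 and 0.853 CPM in male VAT Tregs, 1.5 and 2.82 CPM in female VAT Tregs, 6.55 and 5.63 CPM in male VAT CD4 cells, and 1.45 and 1.43 CPM in male spleen Tregs. At both, each CD4 library lies above all 6 Treg libraries. Male VAT Tregs fell against CD4 cells, at -1.46 ± 0.39 at the promoter (edgeR adjusted p = 0.00459, and 0.0579 without male VAT Treg replicate 2) and -2.37 ± 0.48 past the gene (edgeR adjusted p = 6.53e-05, kept in all 18 alternatives). No pair of Treg groups passed, and male against female VAT Tregs gave -0.39 ± 0.40 and -0.87 ± 0.51 (edgeR adjusted p = 0.773 and 0.473).

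Nkg7 was lower in male VAT Tregs than in CD4 cells at 1 of its 4 tested regions. That region, 24 bp before its start on chromosome 7 (43437035 to 43437114), had 1.08 and 0.533 CPM in male VAT Tregs, 1.10 and 0.821 CPM in female VAT Tregs, 4.04 and 2.60 CPM in male VAT CD4 cells, and 0.727 and 0.478 CPM in male spleen Tregs. Both CD4 libraries exceed all Treg libraries, at a difference of -1.95 ± 0.66 on the log2 scale for male VAT Tregs against CD4 cells (edgeR adjusted p = 0.0432). The call was kept in 8 of 18 alternatives. It was lost without either replicate of male VAT Tregs (edgeR adjusted p = 0.130 and 0.255), of female VAT Tregs (0.0793 and 0.0762) and of CD4 cells (0.458 and 0.122). The neighbouring region 621 bp before the start (43436440 to 43436517) was removed by the filter, at 0.443 and 0.533 CPM in male VAT Tregs, 0.898 and 0.352 CPM in female VAT Tregs, 0.770 and 3.46 CPM in male VAT CD4 cells, and 0.242 and 0.896 CPM in male spleen Tregs. The widest region (43441950 to 43446135), which overlaps Cldnd2 and Etfb, had 34.1 and 34.8 CPM in male VAT Tregs, 31.7 and 28.8 CPM in female VAT Tregs, 27.2 and 32.0 CPM in male VAT CD4 cells, and 34.6 and 38.5 CPM in male spleen Tregs, with no call. All Nkg7 regions are assigned to neighbouring genes too.

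Gzmb had its highest values in male VAT Tregs at its start. The region on chromosome 14 from 56262296 to 56262483, which covers the AP-1 and Runx matches printed above, had 4.75 and 3.09 CPM in male VAT Tregs, 1.5 and 1.53 CPM in female VAT Tregs, 2.50 and 0.865 CPM in male VAT CD4 cells, and 2.55 and 1.43 CPM in male spleen Tregs. Both male VAT Treg libraries lie above the other 6. The region passed across the 4 groups (edgeR adjusted p = 0.0465) but in none of the 4 pairs tested: male VAT Tregs were at 1.39 ± 0.47 against female VAT Tregs (edgeR adjusted p = 0.0764), 1.06 ± 0.44 against spleen Tregs (0.145) and 1.30 ± 0.50 against CD4 cells (0.0976). The widest Gzmb region, 32.8 kb upstream (56295133 to 56298768), had 12.4 and 10.6 CPM in male VAT Tregs, 9.28 and 10.2 CPM in female VAT Tregs, 13.3 and 15.4 CPM in male VAT CD4 cells, and 14.8 and 15.8 CPM in male spleen Tregs. There the VAT Treg groups are the lowest, and none of the 4 pairs tested passed (female VAT against spleen Tregs -0.65 ± 0.23, edgeR adjusted p = 0.161).

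The remaining regions of these genes passed no test. Closest to the threshold among them was a region in the Ifng gene, 1.03 kb from the start (118442071 to 118442152), at 1.32 ± 0.201 CPM in male VAT Tregs and 3.30 ± 1.41 CPM in male spleen Tregs (SD, n = 2 each, log2 fold change -1.34 ± 0.48, edgeR adjusted p = 0.0690).

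Summed over all regions of a gene, and tested among 19232 genes, Hopx, Il12rb2 and Prf1 were called. Wide regions dominate such sums, and at Hopx the region over Chaer1 had the highest CPM. Some Hopx regions, that one included, are also assigned to Gm20558. CPM of gene sums are on a lower scale than the region CPM above: they are relative to the total of the gene table, where a region assigned to several genes counts for each, and that total was 1.34 to 1.40 times the total over regions. Hopx summed to 157 and 121 CPM in male VAT Tregs, 110 and 97.9 CPM in female VAT Tregs, 78.3 and 90.3 CPM in male VAT CD4 cells, and 82.8 and 73.3 CPM in male spleen Tregs. VAT Tregs of both sexes lie above CD4 cells and spleen Tregs, which overlap. Male VAT Tregs exceeded spleen Tregs by 0.84 ± 0.15 (edgeR adjusted p = 0.0027, and 0.0997 without spleen replicate 2) and CD4 cells by 0.73 ± 0.15 (edgeR adjusted p = 0.00712, and 0.120 without CD4 replicate 1), while male against female VAT Tregs gave 0.43 ± 0.14 (edgeR adjusted p = 0.0818). Il12rb2 summed to 6.50 and 9.20 CPM in male VAT Tregs, 7.36 and 7.84 CPM in female VAT Tregs, 23.4 and 25.5 CPM in male VAT CD4 cells, and 3.08 and 4.70 CPM in male spleen Tregs. Both CD4 libraries exceed all Treg libraries, and male VAT Tregs against CD4 cells gave -1.67 ± 0.21 (edgeR adjusted p = 0.000157).

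Against spleen Tregs the Il12rb2 sum gave 0.93 ± 0.23 (edgeR adjusted p = 0.0316), kept in 5 of 11 alternatives and ended by library size alone (0.0753) or by leaving out male VAT Treg replicate 2 (0.0881), either female VAT Treg replicate (0.0605 and 0.0584) or either spleen replicate (0.235 and 0.073). Prf1 summed to 3.18 and 2.04 CPM in male VAT Tregs, 3.17 and 4.49 CPM in female VAT Tregs, 10.6 and 8.73 CPM in male VAT CD4 cells, and 3.17 and 2.98 CPM in male spleen Tregs, a log2 fold change of -1.82 ± 0.30 in male VAT Tregs against CD4 cells (edgeR adjusted p = 0.00113). Of all gene sums, 3.06% were higher and 1.15% lower in male VAT than in spleen Tregs, and 2.44% higher and 1.23% lower than in CD4 cells. Male against female VAT Tregs had 0 of the 10 gene sums called in edgeR, where 3 were higher and 0 lower by an unadjusted p under 0.05, against 2.90% higher and 2.84% lower over all gene sums. There was 1 higher without male VAT Treg replicate 1, and there were 2 without replicate 2. Female VAT against spleen Tregs had 0 called, where 2 were higher and 1 lower by an unadjusted edgeR p under 0.05, against 0.957% higher and 0.0520% lower over all. There were 2 higher and 1 lower without either male VAT Treg replicate. Gzmb summed to 15.5 and 13.3 CPM in male VAT Tregs, 9.52 and 10.4 CPM in female VAT Tregs, 15.0 and 15.7 CPM in male VAT CD4 cells, and 15.8 and 16 CPM in male spleen Tregs. Female VAT Tregs are the lowest group at Gzmb, with males at 0.54 ± 0.17 against females (edgeR adjusted p = 0.0621) and females at -0.68 ± 0.17 against spleen Tregs (edgeR adjusted p = 0.0609).

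A wider list of 34 genes of the same pathways, from interleukin 12, 18 and 27 signalling to granule release, gave 129 tested regions of 32 genes. Male against female VAT Tregs had 5 higher (3.88%) and 1 lower (0.775%), against 2.04% and 1.21% of all regions, with a median log2 fold change of 0.01. All 5 are under 1000 bp (6.41% of 78, against 4.68% of all regions of that width). Higher were 4 regions of Zeb2, a repressor that acts with T-bet in terminal effector cells, and 1 of Il18rap, a chain of the interleukin 18 receptor. The leading Zeb2 region, on chromosome 2 from 44956280 to 44956623, averaged 9.84 ± 5.17 CPM in males and 1.63 ± 0.651 CPM in females (SD, n = 2 each, log2 fold change 2.59 ± 0.37, edgeR adjusted p = 7.42e-09, kept in all 17 alternatives). Il18rap gave 1.26 ± 0.35 (edgeR adjusted p = 0.0183, kept in 11 of 17 alternatives), with an adjusted p of 0.470 without male VAT Treg replicate 1, and 0.0848 and 0.480 without female replicates 1 and 2. The lower region, at the granule protease gene Ctsw, was at -0.60 ± 0.18 (edgeR adjusted p = 0.0273, kept in 10 of 17 alternatives), ended by leaving out male VAT Treg replicate 2 (0.392) or either female replicate (0.351 and 0.181). Without male VAT Treg replicate 1 the list held 1 higher and 3 lower, without female replicate 1 it had 2 higher and 0 lower, and without female replicate 2 it had 1 higher and 0 lower. The lower count was 0 without male VAT Treg replicate 2 and 2 without male VAT CD4 replicate 2.

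Male VAT against spleen Tregs had 24 regions of the list higher (18.6%), at 10 genes, and 1 lower (0.775%), against 4.64% and 2.09% of all regions, with a median of 0.08. Of the 24, 21 are under 1000 bp (26.9% of 78, against 10.2%). The leading Zeb2 region was at 2.87 ± 0.37 (edgeR adjusted p = 3.39e-11). A region of Il18rap was at 2.18 ± 0.37 (edgeR adjusted p = 1.15e-06), and a region of Stx11, a syntaxin of granule fusion, at 1.96 ± 0.30 (4.99e-08). Each of these calls was kept in all 17 alternatives. The lower one belongs to Rab27a, which tethers granules at the membrane (-0.78 ± 0.23, edgeR adjusted p = 0.0182). It was lost without either replicate of male VAT Tregs (edgeR adjusted p = 0.0683 and 0.0721) or of spleen Tregs (0.121 and 0.108). Without male VAT Treg replicate 1 there were 5 higher and 6 lower, without spleen replicate 2 there were 14 higher and 0 lower, and without spleen replicate 1 there were 17 higher and 0 lower.

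Male VAT Tregs against CD4 cells had 17 regions of the list higher (13.2%) and 8 lower (6.20%), at 9 and 6 genes, against 5.18% and 2.51% of all regions, with a median of 0.19. Under 1000 bp 17.9% were higher and 5.13% lower, against 10.3% and 3.73%. A region of Il18rap (2.59 ± 0.44, edgeR adjusted p = 8.65e-07) was higher in every alternative. Of 13 regions of Stat4, which carries the interleukin 12 signal, 1 was called, at 2.32 ± 0.48 (edgeR adjusted p = 0.000105). Without male VAT Treg replicate 1 it was at 1.17 and the call ended. A region of the interferon gamma receptor gene Ifngr1 was lower in every alternative (-2.19 ± 0.40, edgeR adjusted p = 7.24e-06), while 3 others of that gene were higher. Cst7, an inhibitor of granule cathepsins, had 1 of its 3 regions called (-0.98 ± 0.24, edgeR adjusted p = 0.00145). That call ended without male VAT Treg replicate 1, at -0.86, and without CD4 replicate 1, at -0.86. Fasl, the ligand of the death receptor Fas, had 3 of its 12 regions called lower. The leading Fasl region (-0.83 ± 0.21, edgeR adjusted p = 0.00287) lost its call without CD4 replicate 2, at -0.61. The list's counts were 3 higher and 5 lower without male VAT Treg replicate 1, 6 higher and 7 lower without CD4 replicate 1, and 8 higher and 3 lower without CD4 replicate 2.

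Female VAT against spleen Tregs had 8 regions of the list higher (6.20%), against 1.18% of all regions, 4 of them at the kinase gene Jak2. Under 1000 bp 6.41% of 78 were higher, against 2.07%. In edgeR 0 of the list were lower (4 at an unadjusted p under 0.05), against 0.197% of all regions. The median was 0.07. Among the higher ones were regions of Fasl (1.27 ± 0.27, edgeR adjusted p = 0.000533) and Stx11 (1.47 ± 0.32, edgeR adjusted p = 0.000892). Fasl lost its call without female VAT Treg replicate 2 (edgeR adjusted p = 0.0874) or spleen replicate 2 (0.251), and Stx11 without female replicate 2 (0.0588) or spleen replicate 1 (0.0616). Without single libraries of these groups the count was 3 (female replicate 1), 1 (female replicate 2), 3 (spleen replicate 1) and 5 (spleen replicate 2).

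The Il12rb2 region inside the gene had the smallest p across the 4 groups among the members (edgeR adjusted p = 2.61e-15). Over the 8 libraries the regions most like it, among 5237 autosomal regions that differed between groups, were assigned to Dph5, Galr1, Selenbp1, Arf5 and Plcxd2, with Pearson's r of log2 CPM from 0.986 to 0.988. Regions assigned to predicted genes alone were passed over, and each gene was taken once. The regions named are all highest in male VAT CD4 cells, as is the region they were picked to resemble, so this is no separate support. The 8 points share the libraries and their depth.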

How the data were processed

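The authors deposited raw counts per region for all 8 libraries, not normalised, and log2 CPM per library. Per the submitters' processing notes the build is GRCm38 (mm10) and the tools include Subread 1.6.2, HOMER 4.9, featureCounts and limma. How regions were called and assigned to genes is not given in the sources used here. Repeated entries (62205) were reduced to 46624 regions, 112 outside chromosomes 1 to 19, X and Y were left out, and filterByExpr kept 45709 (minimum count 10). The main test was edgeR 4.0.16 (R 4.3.3), quasi-likelihood with TMM scaling, fitted to all 8 libraries with a mean for each group (4 residual degrees of freedom). Errors of log2 fold changes are SEs approximated from the F statistic. The deposited log2 values, limma 3.58.1 and DESeq2 1.42.0 served as alternatives. The fit was tested on simulated data. Mitochondrial reads, left out, were 22.6 to 34.1% of the counts.

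The member genes, the wider list and the markers were chosen with earlier results of these data known. Values per library are given for member regions called in any test, nearest to the gene start or with the highest mean CPM of their gene, and of the wider list for up to 3 genes per comparison and direction, by p; 1 gene of that list is not reported here. RefSeq (GRCm38.p6) gave gene positions, start sites and windows. Intervals and floors cover counting error only.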

Additional observations from a re-analysis of the deposited data

How the results depend on the processing

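Of 44 calls followed one by one, 15 held in every alternative, and in 884 alternative values of 54 results no direction reversed. Scaling on regions under 1000 bp shifted the median log2 fold change of all regions to -0.09 (male against female VAT Tregs), -0.17 (male VAT against spleen Tregs), -0.25 (male VAT Tregs against CD4 cells) and -0.07 (female VAT against spleen Tregs), with 487 higher and 479 lower, 1310 and 1658, 1219 and 1998, and 250 and 49 regions, against 934 and 555, 2121 and 957, 2368 and 1146, and 541 and 90 with TMM on all regions. Library size alone shifted the third to 0.11 (2869 and 672). For the member regions, male VAT Tregs against CD4 cells gave 2 higher with scaling on regions under 1000 bp, with DESeq2 and with limma on the deposited log2 values, and 3 with only these 2 groups, against 5. Male VAT against spleen Tregs gave 3 lower with that scaling and 2 with limma-voom, against 1, and 1 gene sum higher with library size alone, against 2. Female VAT against spleen Tregs gave 0 higher with library size alone, that scaling, DESeq2, limma-voom and the replicate block, against 1, and 3 higher and 1 lower with only these groups. With 1 library left out at a time, the lone sample being assumed to vary like the other groups, members higher ranged from 0 to 5, 3 to 7, 1 to 5 and 0 to 2 in the order of comparisons above, members lower from 0 to 0, 0 to 2, 4 to 8 and 0 to 0, and the 4-group count from 12 to 18. Gene sums higher ranged from 0 to 2, 0 to 2, 0 to 1 and 0 to 2, and lower from 0 to 0, 0 to 0, 2 to 2 and 0 to 1. Regions of the wider list ranged from 1 to 7, 5 to 28, 3 to 20 and 1 to 10 higher, and from 0 to 3, 0 to 6, 3 to 9 and 0 to 0 lower. Replicate differences correlated at -0.13 to 0.06 between groups, lowest between male VAT Tregs and male VAT CD4 cells. These values gave no sign that equal replicate numbers pair libraries, but cannot exclude shared pools. The replicate block gave 14 member regions across the 4 groups and, for male against female VAT Tregs, 0 of the wider list lower, against 1. With the numbers crossed in CD4 cells, an alternative chosen after seeing the data, the block gave 4 members higher and 7 lower than in CD4 cells, as it did uncrossed. Where these values differ the cause was not tested. Libraries of 2 per group and 5.19 reads per CPM in the shallowest limit what narrow regions can show.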
